A study of Drosophila melanogaster with 4 samples.

Results

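The genes described here encode insect cuticle proteins of the Cpr, Ccp, Edg and Tweedle groups. They were taken from the authors' deposited table by name: every row whose RefSeq accessions matched a Drosophila melanogaster symbol of the form Cpr or Edg followed by a digit, Ccp84A, or Twdl. This gave 105 of 16198 rows, made up of 70 Cpr, 7 Ccp84A, 3 Edg and 25 Twdl rows. The rule goes by name alone. Messenger RNA of whole larvae in the third instar, 100 h after egg laying, was compared between larvae labelled homozygous for the allele kr-h1[7] and larvae labelled wildtype. Both were kept at 25°C on the same cornmeal, sugar and yeast diet, the genetic background of either group was not given in the labels, and there were 2 libraries per group. Kr-h1 (Krüppel homolog 1) encodes a transcription factor with zinc fingers, known as a responder to juvenile hormone.

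The larval cuticle is an extracellular layer of chitin fibres and proteins secreted by the epidermis, and it is replaced at each moult and again when the puparium and the pupal and adult cuticles form. Cpr proteins, among which the Ccp84A proteins, Edg78E and Edg84A are counted, carry the Rebers and Riddiford consensus, a stretch that binds chitin, and different genes serve different stages and body regions. Tweedle proteins are a separate insect family, named for a dominant mutation of TwdlD that gives short, stout larvae and pupae. The Edg genes were named as ecdysone-dependent genes of imaginal discs and prepupal epidermis. Many cuticle genes lie in tandem clusters, and a Cpr or Ccp symbol carries the cytological band of its gene.

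All levels below are FPKM, fragments scaled both to the length of the transcript and to the depth of the library. The authors gave 1 value per group over its 2 libraries, so a level carries no replicate error and overlap between libraries cannot be examined. A gene was called higher or lower where its Cuffdiff q-value in the authors' deposited table was at most 0.05. Of all 7058 tested genes 13.0% were called, 4.32% higher and 8.73% lower in mutant-labelled larvae. Kr-h1 itself stood at 9.79 FPKM in mutant-labelled and 2.98 FPKM in wildtype-labelled larvae, 3.28-fold higher under the mutant label (authors' deposited table, Cuffdiff q = 0.000889). The mutant label was therefore not matched by a lower transcript level, and the direction of each difference rests on the labels.

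Most of these cuticle genes were listed at or near 0 in both groups. Of the 105 rows, 41 were listed at 0 in both, and a further 26 were above 0 in at least 1 group but not tested by the authors. The highest value among these untested rows was 3.56 FPKM. The remaining 38 rows were tested (36.2%, against 43.6% of all rows), and each was at or above 2.76 FPKM in both groups. Which rows were tested may depend on the fragments found in either group, so counts over tested rows describe those rows and not the whole family.

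Expression was concentrated in a few genes. The 10 most abundant held 86.0% of the summed FPKM of the 105 rows in mutant-labelled and 88.5% in wildtype-labelled larvae. Cpr47Eg led in both groups, with 2506 FPKM in mutant-labelled and 2757 FPKM in wildtype-labelled larvae. Cpr60D followed in mutant-labelled larvae (678 FPKM, against 629 FPKM in wildtype-labelled larvae), whereas Cpr67Fa2 stood second in wildtype-labelled larvae. The sum over all 105 rows was 6004 FPKM in mutant-labelled and 6642 FPKM in wildtype-labelled larvae, which is 1.11% of the FPKM total in mutant-labelled and 1.17% in wildtype-labelled larvae.

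**Figure D1:**
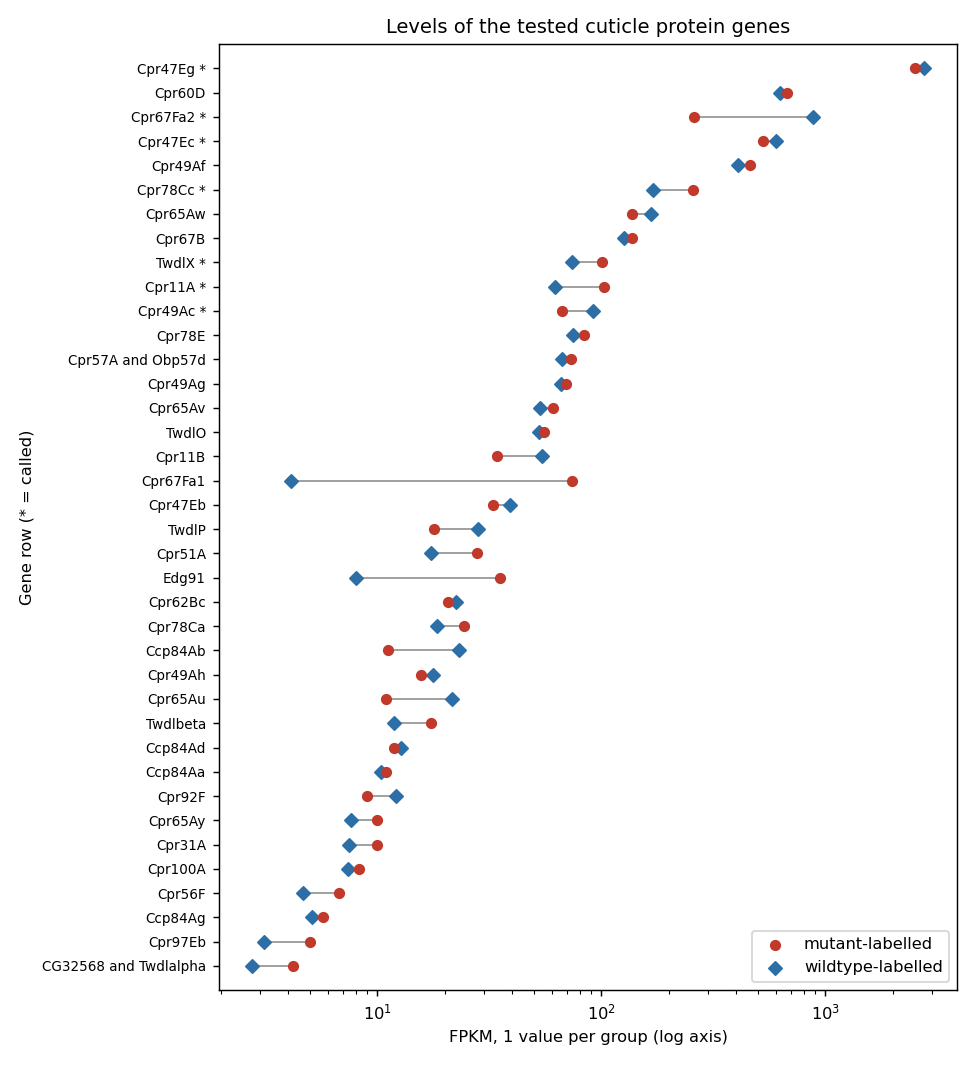
Levels of the 38 tested cuticle protein genes, 1 row per gene, with FPKM on a log axis. Circles are mutant-labelled and diamonds wildtype-labelled larvae, 1 value per group over 2 libraries, and asterisks mark called genes. Most pairs lie close together, from Cpr47Eg at 2506 and 2757 FPKM downwards, while Cpr67Fa1, Cpr67Fa2 and Edg91 are widely spread.

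Of the 38 tested genes, 3 rose, 4 fell and 31 were not called, 3 of them with an unadjusted p under 0.05. Genes called higher thus made up 7.89% of the tested cuticle genes, against 4.32% of all tested genes, and genes called lower 10.5%, against 8.73%. Together 18.4% were called, against 13.0% of all tested genes, and among all genes the share called was larger at higher levels. At 100 FPKM or more 4 of 8 cuticle genes were called, against 49.3% of all tested genes. Between 10 and 100 FPKM 3 of 23 were called, against 14.4%, and below 10 FPKM 0 of 7 against 4.44%. The median log2 ratio of the tested cuticle genes, mutant-labelled over wildtype-labelled with a pseudocount of 1, was 0.13, and that of all tested genes was -0.03. By level, the cuticle gene median was 0.38 below 10 FPKM, 0.06 between 10 and 100 FPKM and -0.02 at 100 FPKM or more. For all tested genes it was 0.01, -0.06 and -0.07 at these levels. The mutant-labelled value was the higher one in 24 of the 38 tested cuticle genes (63.2%, against 46.5% of all tested genes). Of the 31 genes not called, 22 had an absolute log2 ratio under 0.5.

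**Figure D2:**
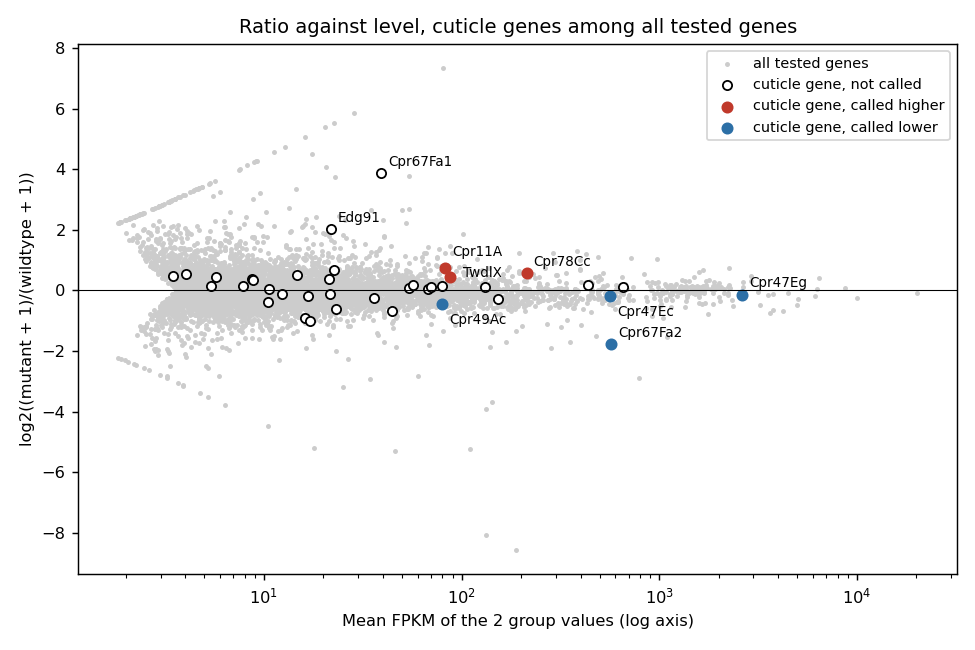
Log2 ratio of mutant-labelled over wildtype-labelled FPKM (pseudocount 1) against the mean of the 2 group values, on a log axis. Grey points are all 7058 tested genes, open circles cuticle genes that were not called, and filled circles the 3 called higher and 4 called lower. Cpr67Fa1 at 3.87 and Edg91 at 2.02 have the largest positive ratios among the tested cuticle genes and were not called.

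The genes that rose were Cpr78Cc, Cpr11A and TwdlX, which lie at 3 separate sites. Cpr78Cc encodes a Cpr protein of 119 residues and lies on arm 3L at 21300580 to 21301171, on the plus strand with 2 exons. Its level was 256 FPKM in mutant-labelled and 170.4 FPKM in wildtype-labelled larvae, 1.50-fold higher (authors' deposited table, Cuffdiff q = 0.000889).

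Cpr11A, on the X chromosome at 12486970 to 12489448, had 103 FPKM in mutant-labelled and 62.0 FPKM in wildtype-labelled larvae, 1.66-fold higher (authors' deposited table, Cuffdiff q = 0.000889). Its neighbour Cpr11B begins 27.2 kb further on in the table, in a locus shared with another row, and stood the other way round. Cpr11B had 34.0 FPKM in mutant-labelled and 54.5 FPKM in wildtype-labelled larvae and was not called (authors' deposited table, Cuffdiff q = 0.0617). Cpr11B was singled out after its values were seen, as the nearest cuticle gene of the family.

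TwdlX was the called member among the Tweedle genes. It had 100.3 FPKM in mutant-labelled and 74.2 FPKM in wildtype-labelled larvae, 1.35-fold higher (authors' deposited table, Cuffdiff q = 0.000889). The row lies on X at 16727304 to 16751910, coordinates that 5 rows of the table share, among them TwdlY, TwdlZ and Twdlalpha, so fragments could be divided between neighbours. TwdlZ was listed at 0 in both groups and TwdlY at 0 in mutant-labelled and 0.670 FPKM in wildtype-labelled larvae. The row of Twdlalpha and CG32568 had 4.19 FPKM in mutant-labelled and 2.76 FPKM in wildtype-labelled larvae and was not called (authors' deposited table, Cuffdiff q = 0.478).

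The genes that fell were Cpr67Fa2, Cpr49Ac, Cpr47Ec and Cpr47Eg. The sizes of the decreases differed widely. Cpr67Fa2 was 3.39-fold lower, whereas Cpr47Ec and Cpr47Eg, among the most abundant of the family, were 1.14-fold and 1.100-fold lower.

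Among tested rows of the family, the 67F cluster held both the largest positive and the largest negative log2 ratio, 3.87 and -1.76, at adjacent genes. Cpr67Fa1 (arm 3L, 10889990 to 10890700) and Cpr67Fa2 (10891714 to 10892516) lie on the plus strand 1013 nucleotides apart, each with 2 exons and a protein of 134 residues. Cpr67Fa2 fell to 260.2 FPKM in mutant-labelled larvae, against 882 FPKM in wildtype-labelled larvae (authors' deposited table, Cuffdiff q = 0.000889). Cpr67Fa1 had 73.8 FPKM in mutant-labelled and 4.11 FPKM in wildtype-labelled larvae. This 18.0-fold difference was not called (authors' deposited table, Cuffdiff q = 0.0945).

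Since Cpr67Fa1 and Cpr67Fa2 encode proteins of equal length side by side and may share fragments, their values were also summed. The pair together had 334 FPKM in mutant-labelled and 886 FPKM in wildtype-labelled larvae, 2.65-fold lower, or 2.66-fold lower when each was weighted by its exonic length of 554 and 565 nucleotides. Cpr67Fa1 was 69.6 FPKM higher in mutant-labelled larvae and Cpr67Fa2 621.7 FPKM lower. Cpr67Fa1 made up 22.1% of the pair in mutant-labelled larvae and 0.463% in wildtype-labelled larvae. How fragments were divided between these genes was not given, and its part in the values was not tested. The third gene of the band, Cpr67Fb, was listed at 1.48 FPKM in mutant-labelled and 0 in wildtype-labelled larvae and was not tested. Over all 105 rows the ratio of summed FPKM, mutant-labelled over wildtype-labelled, was 0.904, and without Cpr67Fa1 and Cpr67Fa2 it was 0.985. The FPKM total over all listed genes was itself lower in mutant-labelled larvae, 543224 against 566151 in wildtype-labelled larvae.

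**Figure D3:**
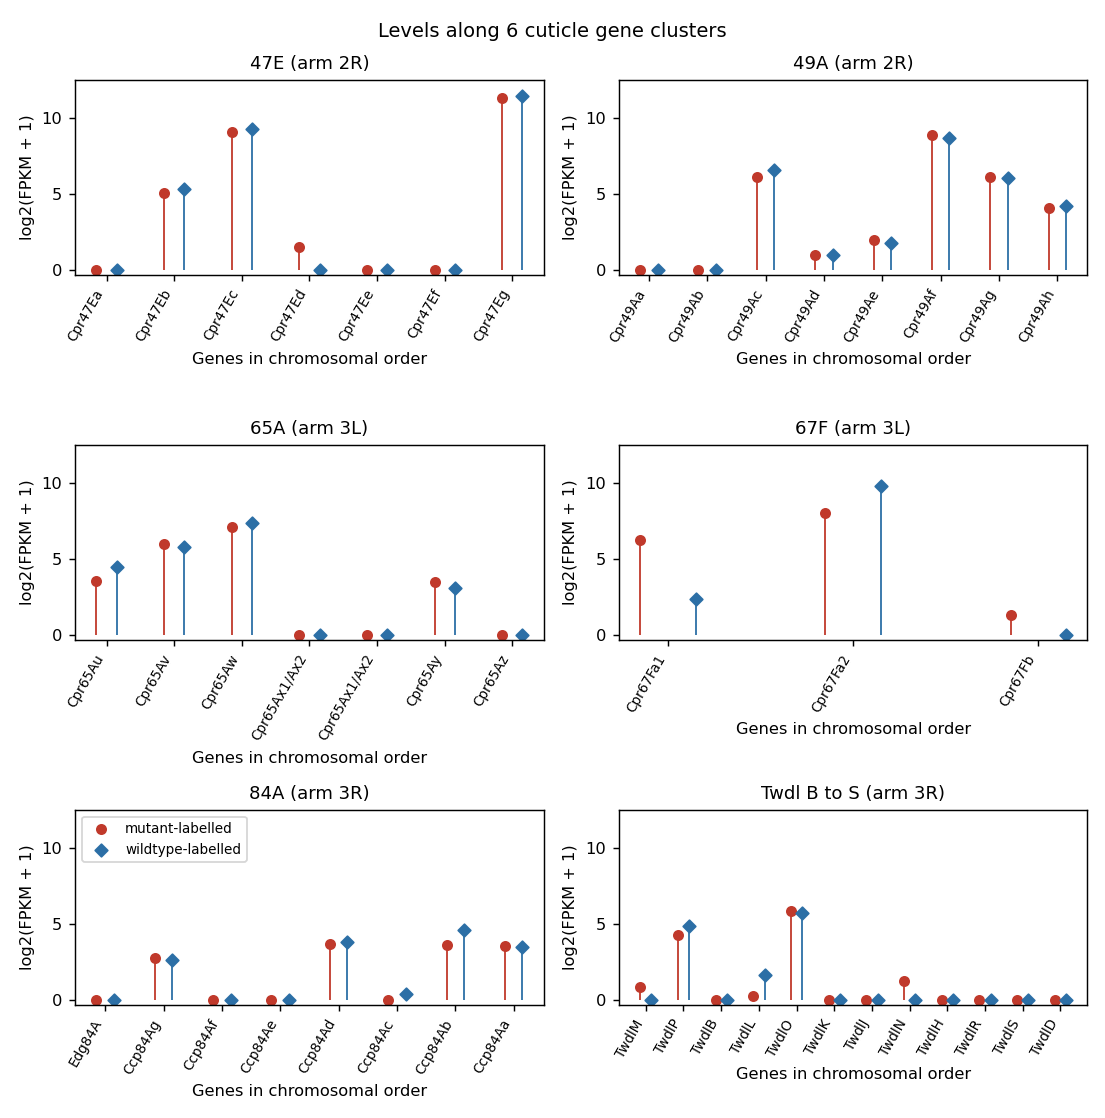
Levels along 6 clusters, with genes in chromosomal order and log2(FPKM + 1) on the vertical axis. Circles are mutant-labelled larvae and diamonds, to their right, wildtype-labelled larvae. In the 67F panel Cpr67Fa1 is higher and Cpr67Fa2 lower in mutant-labelled larvae. In 47E and 84A genes listed at 0 in both groups lie between expressed genes. In 65A the rows at 0 between expressed genes are those of the duplicated Cpr65Ax1 and Cpr65Ax2, which are not read as absence.

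In the 47E cluster, 7 genes over 28.1 kb of arm 2R, expressed genes lay among genes listed at 0. Cpr47Eb, Cpr47Ec and Cpr47Eg were tested, and all 3 had the lower value in mutant-labelled larvae, with a median log2 ratio of -0.19. Cpr47Ec (11259106 to 11259976) had 525 FPKM in mutant-labelled and 601 FPKM in wildtype-labelled larvae (authors' deposited table, Cuffdiff q = 0.0288). Cpr47Eg (11277957 to 11278445) fell as well (authors' deposited table, Cuffdiff q = 0.0370). Cpr47Eb had 32.8 FPKM in mutant-labelled and 39.2 FPKM in wildtype-labelled larvae and was not called. Cpr47Ed was listed at 1.83 FPKM in mutant-labelled and 0 in wildtype-labelled larvae, and Cpr47Ea, Cpr47Ee and Cpr47Ef were at 0 in both groups.

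The 49A cluster holds 8 genes over 38.5 kb of arm 2R. Cpr49Ac (12386666 to 12390057), with 6 exons, fell 1.37-fold, to 67.0 FPKM in mutant-labelled larvae against 91.8 FPKM in wildtype-labelled larvae (authors' deposited table, Cuffdiff q = 0.000889). Cpr49Af, the most abundant gene of the band, had 462 FPKM in mutant-labelled and 409 FPKM in wildtype-labelled larvae and was not called (authors' deposited table, Cuffdiff q = 0.244). Cpr49Ag had 69.2 FPKM in mutant-labelled and 66.1 FPKM in wildtype-labelled larvae, and Cpr49Ah had 15.6 FPKM in mutant-labelled and 17.7 FPKM in wildtype-labelled larvae. Thus Cpr49Ac was the called gene in a band whose other tested genes lay within a log2 ratio of -0.17 to 0.18. Cpr49Aa and Cpr49Ab were at 0 in both groups, and the untested Cpr49Ad and Cpr49Ae stayed below 3 FPKM.

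The 65A cluster of Cpr genes, 7 rows over 30.3 kb of arm 3L among the Lcp65A larval cuticle genes, had 4 tested rows. Cuffdiff called 0 of them, against 13.0% of all tested genes, and 0 had an unadjusted p under 0.05. Cpr65Aw was the most abundant, with 138 FPKM in mutant-labelled and 167 FPKM in wildtype-labelled larvae (authors' deposited table, Cuffdiff q = 0.356). Cpr65Av had 60.9 FPKM in mutant-labelled and 53.3 FPKM in wildtype-labelled larvae. Cpr65Au had 10.9 FPKM in mutant-labelled and 21.5 FPKM in wildtype-labelled larvae and was not called (authors' deposited table, Cuffdiff q = 0.277). Cpr65Ay had 9.98 FPKM in mutant-labelled and 7.62 FPKM in wildtype-labelled larvae, and Cpr65Az was at 0 in both groups.

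The row pair of Cpr65Ax1 and Cpr65Ax2 was listed at 0 in both groups, and each of its rows carried accessions of both genes. The neighbouring larval cuticle gene Lcp65Ab2, also listed in 2 rows, was at 0 in both groups as well. A level of 0 for such duplicated genes is given as listed and is not read as absence of the transcript. Of the 7 tested Lcp65A genes, Lcp65Ag3, Lcp65Ag2 and Lcp65Aa rose (authors' deposited table, Cuffdiff q = 0.000889, 0.0357 and 0.0375). They had 274, 61.1 and 209.9 FPKM in mutant-labelled and 115.3, 33.1 and 149 FPKM in wildtype-labelled larvae. Of all tested genes 4.32% were called higher and 8.73% lower. Lcp65Ag1 fell, with 467 FPKM in mutant-labelled and 565 FPKM in wildtype-labelled larvae (authors' deposited table, Cuffdiff q = 0.0135). How fragments were divided between Lcp65Ag1, Lcp65Ag2 and Lcp65Ag3 was not given, and its part in the values was not tested. Lcp65Ac, Lcp65Ae and Lcp65Af were not called, with 325, 476 and 42.3 FPKM in mutant-labelled and 308, 503 and 64.9 FPKM in wildtype-labelled larvae.

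In the 84A cluster, 7 Ccp84A genes and Edg84A over 20.5 kb of arm 3R, 4 genes were tested. Cuffdiff called 0 of these, and 1, Ccp84Ab, had an unadjusted p under 0.05. Of all tested genes 4.44% were called below 10 FPKM and 14.4% between 10 and 100 FPKM, so 0 of 4 is not read as a trait of the cluster. Further, 2 of the Ccp84A genes and Edg84A were at 0 in both groups. Ccp84Ab (6701968 to 6702877) was the most abundant on the mean of both groups and differed most. It had 11.1 FPKM in mutant-labelled and 23.2 FPKM in wildtype-labelled larvae and was not called (authors' deposited table, Cuffdiff q = 0.0664). Its neighbour Ccp84Aa had 10.9 FPKM in mutant-labelled and 10.4 FPKM in wildtype-labelled larvae, Ccp84Ad had 11.9 FPKM in mutant-labelled and 12.8 FPKM in wildtype-labelled larvae, and Ccp84Ag had 5.71 FPKM in mutant-labelled and 5.11 FPKM in wildtype-labelled larvae. The last 3 lay close to equality, with log2 ratios of 0.06, -0.10 and 0.13.

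The 78C cluster, where Cpr78Cc rose, also holds Cpr78Ca and Cpr78Cb. Cpr78Ca had 24.3 FPKM in mutant-labelled and 18.5 FPKM in wildtype-labelled larvae and was not called (authors' deposited table, Cuffdiff q = 0.521), and Cpr78Cb was at 0 in both groups. Edg78E, although named for band 78E, lies between Cpr78Cb and Cpr78Cc, 64 nucleotides from the first and 2.78 kb from the second. It had 0.339 FPKM in mutant-labelled and 0.889 FPKM in wildtype-labelled larvae and was not tested. Cpr78E, 369 kb further along the arm, had 83.6 FPKM in mutant-labelled and 74.8 FPKM in wildtype-labelled larvae and was not called.

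Of the Edg genes, Edg91 (arm 3R, 17610856 to 17611511, 2 exons) was the expressed one. It had 35.4 FPKM in mutant-labelled and 8.01 FPKM in wildtype-labelled larvae. This 4.43-fold difference was not called (authors' deposited table, Cuffdiff q = 0.237). The authors' deposited table thus gave no call for this gene despite the size of its ratio.

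Tweedle genes were mostly listed at or near 0. Of 25 rows, 13 were at 0 in both groups and 5 were tested. Among these 5, 1, TwdlX, was called, against 13.0% of all tested genes. The largest group, 12 genes over 21.9 kb of arm 3R from TwdlM to TwdlD, had 2 tested members. TwdlO had 55.7 FPKM in mutant-labelled and 52.4 FPKM in wildtype-labelled larvae and was not called (authors' deposited table, Cuffdiff q = 0.785). TwdlP had 18.0 FPKM in mutant-labelled and 28.2 FPKM in wildtype-labelled larvae and was not called either (the authors' deposited table, q = 0.227). TwdlD, the founding gene of the family, was at 0 in both groups. Of the other members of this group TwdlL, TwdlM and TwdlN had low values that were not tested, and the rest were at 0. Twdlbeta, which stands alone on arm 2R, had 17.3 FPKM in mutant-labelled and 11.9 FPKM in wildtype-labelled larvae and was not called. TwdlG led the group of TwdlF, TwdlG and TwdlV with 0.983 FPKM in mutant-labelled and 2.03 FPKM in wildtype-labelled larvae.

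**Figure D4:**
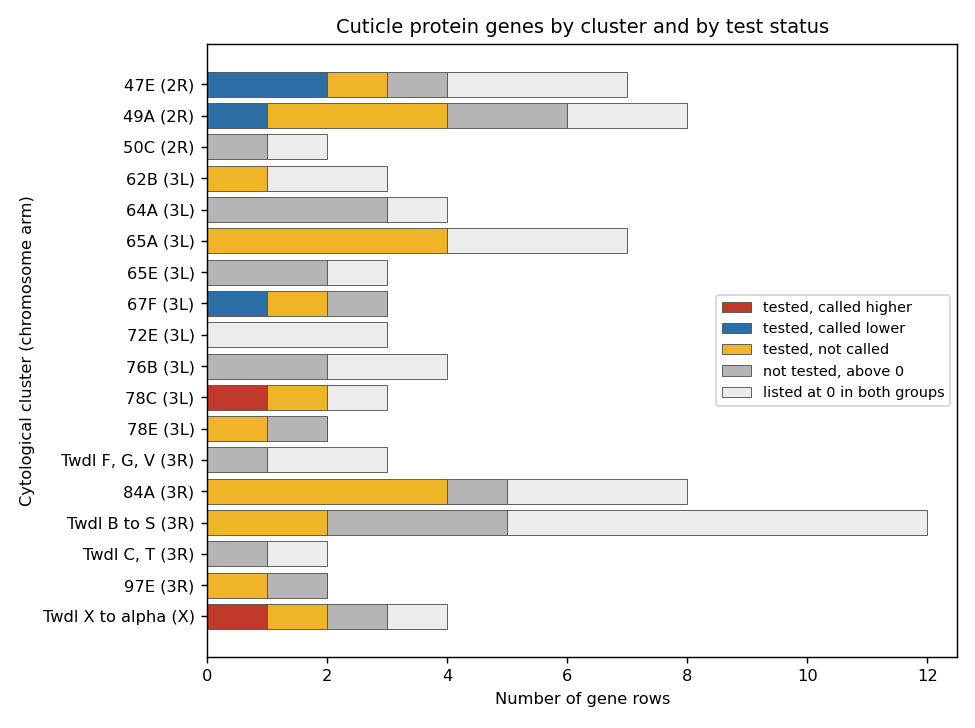
Number of gene rows in each of the 18 clusters with at least 2 rows, split by their state in the table: tested and called higher or lower, tested and not called, not tested but above 0, and at 0 in both groups. The called genes fall in 47E (2), 49A, 67F, 78C and the Tweedle group on X (1 each). Cpr11A stands alone and is not drawn. Clusters follow the band in the symbol, so Edg78E is drawn with Cpr78E in 78E, although it lies between Cpr78Cb and Cpr78Cc.

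Several clusters had no tested gene. The 3 genes of 72E were at 0 in both groups. In 64A, Cpr64Ab was listed at 3.56 FPKM in mutant-labelled larvae and at 0 in wildtype-labelled larvae, in a locus shared by 7 rows. Cpr65Ea led 65E with 1.19 FPKM in mutant-labelled larvae and a listed 0 in wildtype-labelled larvae, and Cpr76Bc led 76B with 1.29 FPKM in mutant-labelled larvae and a listed 0 in wildtype-labelled larvae. In the same bands Cpr64Aa, Cpr64Ad, Cpr65Ec and Cpr76Bb had values under 2 FPKM, while Cpr64Ac, Cpr65Eb, Cpr76Ba and Cpr76Bd were at 0 in both groups, as were Cpr50Ca, Cpr62Ba, Cpr62Bb and TwdlC elsewhere. The untested Cpr12A, Cpr35B, Cpr50Cb, Cpr66Cb, Cpr66D, Cpr97Ea, Ccp84Ac, TwdlE and TwdlT were above 0 in at least 1 group. The highest of these was Cpr12A, with 3.31 FPKM in mutant-labelled and 2.26 FPKM in wildtype-labelled larvae. In all, 10 rows were at 0 in wildtype-labelled larvae alone and 5 in mutant-labelled larvae alone, all of them untested, so these zeros are not read as a difference.

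Of the genes that stand alone in their band, Cpr11A was called and the others were not. Cpr60D was not called (authors' deposited table, Cuffdiff q = 0.411). Cpr67B had 137 FPKM in mutant-labelled and 126 FPKM in wildtype-labelled larvae and was not called (authors' deposited table, Cuffdiff q = 0.432). The row of Cpr57A and Obp57d had 72.9 FPKM in mutant-labelled and 66.8 FPKM in wildtype-labelled larvae. Cpr51A had 28.0 FPKM in mutant-labelled and 17.3 FPKM in wildtype-labelled larvae, without a call (authors' deposited table, Cuffdiff q = 0.279). Cpr31A, Cpr56F, Cpr92F and Cpr100A, each below 13 FPKM in both groups, were not called, nor was Cpr97Eb of 97E. Cpr62Bc was the tested gene of 62B, with 20.7 FPKM in mutant-labelled and 22.5 FPKM in wildtype-labelled larvae. Cpr23B, Cpr30B, Cpr30F, Cpr5C, Cpr73D, Cpr92A, TwdlQ and TwdlW were at 0 in both groups.

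Other genes of cuticle formation were set beside these. Over all tested genes 4.32% were called higher and 8.73% lower, and at 100 FPKM or more 14.4% were called higher and 34.9% lower. Among 15 tested rows of other cuticle proteins, which include the very abundant Lcp genes, 3 rose and 4 fell. Their median log2 ratio was -0.07, and 4 of the 10 rows that averaged 100 FPKM or more were called lower. Lcp65Aa and Lcp65Ag3, among the same 10 rows, were called higher. The Lcp9 row, called lower, is shared with the gene egg. Of 29 tested genes of chitin synthesis and cuticle assembly, 0 rose (1 at an unadjusted p under 0.05) and 9 fell. Their median log2 ratio was -0.18, and 5 of the 7 genes that averaged 100 FPKM or more were called lower. The chitin deacetylase genes serp and verm fell, with 121 and 190 FPKM in mutant-labelled and 156 and 228 FPKM in wildtype-labelled larvae. The chitin synthase gene kkv had 16.6 FPKM in mutant-labelled and 20.2 FPKM in wildtype-labelled larvae and was not called (authors' deposited table, Cuffdiff q = 0.0749). Of 7 tested genes of cuticle tanning, Cuffdiff called 0, and 1 had an unadjusted p under 0.05.

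Genes that mark the hormonal stage and other tissues were measured in the same larvae. Of 13 tested rows on a list of ecdysone-related regulators, which also held Kr-h1 itself, 1 rose, Kr-h1, and 1 fell. The row that fell is shared by Actn and usp and cannot be read as usp alone. The median log2 ratio of the 13 was -0.13. The row of ftz-f1, a prepupal regulator of cuticle genes, is shared with lncRNA:CR45939 and was not tested. It had 3.37 FPKM in mutant-labelled and 1.63 FPKM in wildtype-labelled larvae. The untested row of Hr3 and CG12912 stood the other way, at 0 in mutant-labelled and 1.08 FPKM in wildtype-labelled larvae. E23, ImpE1 and ImpE2, also untested, had 1.57, 1.46 and 1.71 FPKM in mutant-labelled and 0.472, 0.358 and 0.454 FPKM in wildtype-labelled larvae. The untested ImpE3, Hr4 and Eip93F likewise had the higher value in mutant-labelled larvae. Eip78C, Hr38, Blimp-1, Met and ImpL1, untested as well, had the lower one. In mutant-labelled and wildtype-labelled larvae br had 10.9 and 13.7 FPKM and EcR 8.97 and 7.87 FPKM, neither of them called. Of 11 tested glue genes 2 rose and 2 fell. Of the 5 glue genes that averaged 100 FPKM or more 2 were called lower, against 34.9% of all tested genes at that level. Among the same 5, ng3 was called higher, against 14.4%. Muscle genes fell in 12 of 16 tested rows and rose in 0, and their share of the FPKM total was 2.77% in mutant-labelled and 3.24% in wildtype-labelled larvae. Of the 14 muscle rows at 100 FPKM or more 10 were called lower, against the 34.9% of all tested genes at that level. Fat body genes fell in 6 of 8 and rose in 0, with 3.36% of the total in mutant-labelled and 4.16% in wildtype-labelled larvae. Of the 7 fat body rows at 100 FPKM or more 6 were called lower, against the same 34.9%. Digestive genes of the gut rose in 4 and fell in 7 of 16. Of the 10 gut rows that averaged 100 FPKM or more 6 were called lower, also against 34.9%. Jon25Bi, Jon99Cii and Jon99Ciii, among the same 10 rows, were called higher, against 14.4% of all tested genes at that level. The share of the gut rows in the FPKM total was 2.98% in mutant-labelled and 2.92% in wildtype-labelled larvae. In whole larvae, fewer epidermal cells and less RNA per cell cannot be told apart, and the part of stage or tissue makeup in the cuticle gene values was not tested.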

How the data were processed

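Per the labels' protocols, poly-A RNA of whole larvae was read on an Illumina MiSeq as paired ends. TopHat2, Cufflinks and Cuffdiff are named in the submitters' processing notes. The sources used here do not give versions, settings, strand handling, annotation or genome build. The FPKM values were made by the authors with Cuffdiff, 1 per group over 2 libraries. The log2 fold change, test score, p-value and q-value are the authors' deposited Cuffdiff output. Recomputing a Benjamini-Hochberg adjustment gave the same q-values over the 7058 tested rows, and the score was not used. No read counts were given, so depth and the spread between libraries are unknown. The labels leave unsaid if libraries are separate collections of larvae, so the p-values can reflect no more than how these 2 libraries per group vary, possibly for technical reasons.

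Accessions were matched to NCBI Release 6 symbols (30273 of 30529). Both ends of 89 of the 105 rows were identical to the gene in Ensembl release 115, which gave strand, exons and protein lengths. Starts are written 1-based. Ratios used a pseudocount of 1, which understates changes of low genes. Clusters follow the band in the symbol or, for symbols without one, runs of rows under 50 kb apart, and a median is given for those with at least 3 tested rows. Genes named by rule were those called, those tested whose log2 ratio reached 1 in either direction, and the 10 most abundant. The rule also took the leading gene of each cluster of 3 or more rows and the Edg genes. It further took genes at 0 in 1 group and at least 2 FPKM in the other. Other members are given beside these. Members of tandem clusters may be similar in sequence, which was not examined here, so their single values are uncertain. The adjustment was tested on simulated data. The members, lists and rules were chosen with earlier results of these data known. Python 3.11.15, numpy 2.4.6, pandas 2.3.3 and matplotlib 3.10.9 were used.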

Additional observations from a re-analysis of the deposited data

How the results depend on the processing

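The deposited table holds 1 value per group, so leaving out a library was not possible. No paired analysis was possible because no value per replicate is given. Of the genes called, 2 lower ones remained at a q-value of at most 0.01, where Cpr47Ec and Cpr47Eg are lost, and all 3 higher ones. At a q-value of at most 0.1 the counts were 4 higher and 6 lower. When the absolute log2 ratio also had to reach 1, 0 higher genes and 1 lower gene, Cpr67Fa2, were left. Without rows of shared loci or several symbols, 2 higher and 4 lower genes were left, TwdlX being the one lost. The median log2 ratio of the 49A cluster turned from -0.054 to 0.051 when untested rows above 0 were included, and that of 84A from -0.019 to 0.016 when centred on all tested genes. For both the cause was not tested. Leaving out Cpr67Fa1 and Cpr67Fa2, an alternative chosen after seeing the data, moved the ratio of summed FPKM from 0.904 to 0.985 and the count of lower genes to 3. All 16 tested genes that met the naming rule kept their sign with pseudocounts of 0.1 and 10 and after centring. The other tested genes given above were not part of this check. A planned search for promoter and protein motifs was not run, as no sequences were used here.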

Other observations

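Protein length was set beside the test status of the cuticle genes as description only, and the difference was not tested. The ranges of tested and untested rows overlapped, and the longest protein is that of Cpr76Bd alone. The proteins of the 38 tested rows had a median of 190.5 residues and at most 388, and those of the 67 untested rows a median of 218 and at most 1231. The shortest, of 93 residues, is that of Cpr60D, the second most abundant gene of the family in mutant-labelled larvae. By chromosome arm, 3 of 12 tested cuticle genes on 2R were called lower, against 8.41% of all tested genes of that arm. These include Cpr47Ec and Cpr47Eg, which averaged over 100 FPKM, where 34.9% of all tested genes were called lower. On 3L 1 of 11 was called higher and 1 lower, against 4.82% called higher and 10.4% lower. On X 2 of 4 were called higher, against 4.36%. On 3R 0 of 10 were called, against 3.89% called higher and 7.83% lower, and on 2L 0 of 1, against 4.31% higher and 8.29% lower. The arms were looked at after the values had been seen, and their shares were not matched for level. Genes of 1 cluster are not independent.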
